A study of Mus musculus with 24 samples.

Results

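The genes described here are 10 markers of oligodendrocyte precursor cells (OPCs) and of the oligodendrocyte lineage: Pdgfra, Cspg4, Gpr17, C1ql1, Olig1, Olig2, Sox10, Sox8, Myrf and Bmp4. They were chosen by symbol among the 53379 genes of the count table. All 10 had enough reads to be among the 37598 genes tested. Their mRNA was compared between kainic acid (KA) and sham (SH) mice in glia and in neurons of the right hippocampus, 24 hours after status epilepticus.

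Adult male C57/BL6N mice, bought at 8 weeks of age and kept for 4 weeks before use, received kainic acid into the deep cortex beside the right hippocampus, which triggers a prolonged seizure. SH mice had the same surgery with saline. Right hippocampi of 8 mice per treatment were combined into 3 pools, with 4 mice in replicate 1 and 2 mice in each of the 2 other replicates. Nuclei of each pool were sorted with an antibody to NeuN into NeuN+ nuclei (neurons) and NeuN- nuclei (glia), giving 12 mRNAseq libraries of nuclear RNA, 3 per treatment and fraction. The NeuN- fraction holds every cell type without NeuN, so OPCs were not isolated from mature oligodendrocytes, astrocytes, microglia or vascular cells.

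OPCs are the dividing glial cells from which myelinating oligodendrocytes arise. PDGF receptor signalling keeps them proliferating, the transcription factors Olig1, Olig2, Sox8 and Sox10 define the lineage, and Myrf switches on myelin genes once a cell leaves the precursor stage. BMP ligands hold this differentiation back. In the adult hippocampus, OPCs are spread through all layers and contact neurons directly.

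Total counts ranged from 7769400 to 40364768 per library, so that the members other than Bmp4 had at least 877 reads in every glia library. SH glia replicate 1 and KA glia replicate 2 were amplified from about 0.05 ng RNA with 15 PCR cycles, the other 10 libraries from about 1 ng with 10 cycles. NeuN transcript (Rbfox3) was 216 ± 45.6 CPM in neurons and 38.3 ± 15.8 CPM in glia (SD, n = 6), and Mbp, a component of myelin, was 137 ± 88.9 CPM in neurons and 2416 ± 1414 CPM in glia. Aldh1l1 (astrocytes) was 7.90 ± 3.00 and 30.8 ± 5.42 CPM, and Cx3cr1 (microglia) was 6.48 ± 3.30 and 211 ± 97.9 CPM, in the same order. Pdgfrb (pericytes) was 7.42 ± 2.37 and 18.9 ± 5.55 CPM and Col1a1 (fibroblasts) was 12.4 ± 4.83 and 15.4 ± 6.39 CPM. CPM are read counts scaled to the TMM-normalized size of each of the 12 libraries.

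All 10 lineage genes were higher in glia than in neurons at a false discovery rate (FDR) below 0.05, against 6.91% of all genes tested (edgeR quasi-likelihood test with Benjamini-Hochberg adjustment). The log2 fold change (logFC) ranged from 2.29 for Sox8 to 4.74 for Sox10, and the FDR from 1.13e-06 for Cspg4 to 2.53e-04 for Bmp4. This is a check of the sort, and every one of 22 alternatives (21 for Bmp4) kept the call.

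Levels differed among the genes in SH glia when expressed per kilobase of exon. Olig1 was the most abundant at 384 ± 114 CPM per kb (SD, n = 3). Sox10 followed at 167 ± 59.6, Olig2 at 119 ± 40.3, Sox8 at 83.7 ± 30.2, Myrf at 81.3 ± 38.3, Gpr17 at 72.6 ± 37.3 and C1ql1 at 65.8 ± 28.5 CPM per kb. From Sox10 down to C1ql1, each gene differed from its neighbour in this order by less than the larger of their SDs. Pdgfra at 33.5 ± 3.11, Cspg4 at 24.4 ± 3.38 and Bmp4 at 6.17 ± 2.41 CPM per kb lay below them, each separated from the gene above it by more than the SDs. In KA glia Sox10 stood first at 147 ± 80.3 CPM per kb and Olig1 second at 122 ± 21.6, a gap smaller than the SD of Sox10, and Gpr17 stood at 18.2 ± 3.80, next to Pdgfra at 19.1 ± 5.39.

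The main question of the comparison was which genes changed in glia after KA. All 10 lineage genes had a negative logFC, with a median of -1.10 against 0.14 over all genes tested. In 6 of the 10 (Pdgfra, Cspg4, Gpr17, Olig1, Olig2 and Sox8) every KA library lay below every SH library, an arrangement found in 3.00% of all genes tested. In 1 joint fit of the 12 libraries at an FDR below 0.25, the threshold of the study, 1 of 10 was downregulated (Cspg4), against 0.306% of all genes. None was upregulated, against 0.442% of all genes. At an unadjusted p below 0.05 (edgeR) none had a positive logFC, against 788 of 37598 genes tested, and 4 had a negative one, against 1012. These last counts over all genes also apply to the glia lists below. The paper treated neurons and glia separately, and its list of glia genes at an FDR below 0.25 holds none of the 10.

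KA and SH libraries of the same replicate number deviated together. Adding that number to the model (the replicate block) called 7 of 10 lineage genes downregulated (the 6 above and Bmp4), against 4.17% of all genes, and 0 of 10 upregulated, against 3.47%. These counts depend on the fit: DESeq2 called 4 of 10 downregulated (Cspg4, Gpr17, Olig1 and Sox8), against 1.01% of all genes, and 0 upregulated, against 0.803%. A fit of the glia libraries alone called no lineage gene, against 0.0507% of all genes called downregulated, and a fit without both libraries of low RNA input called none, against 0.00253%. In the fit without those 2 libraries, the logFC of the 7 genes lay between -2.13 for Gpr17 and -0.77 for Pdgfra. Fewer cells of a type and less RNA per cell cannot be told apart in these bulk libraries.

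**Figure D1:**
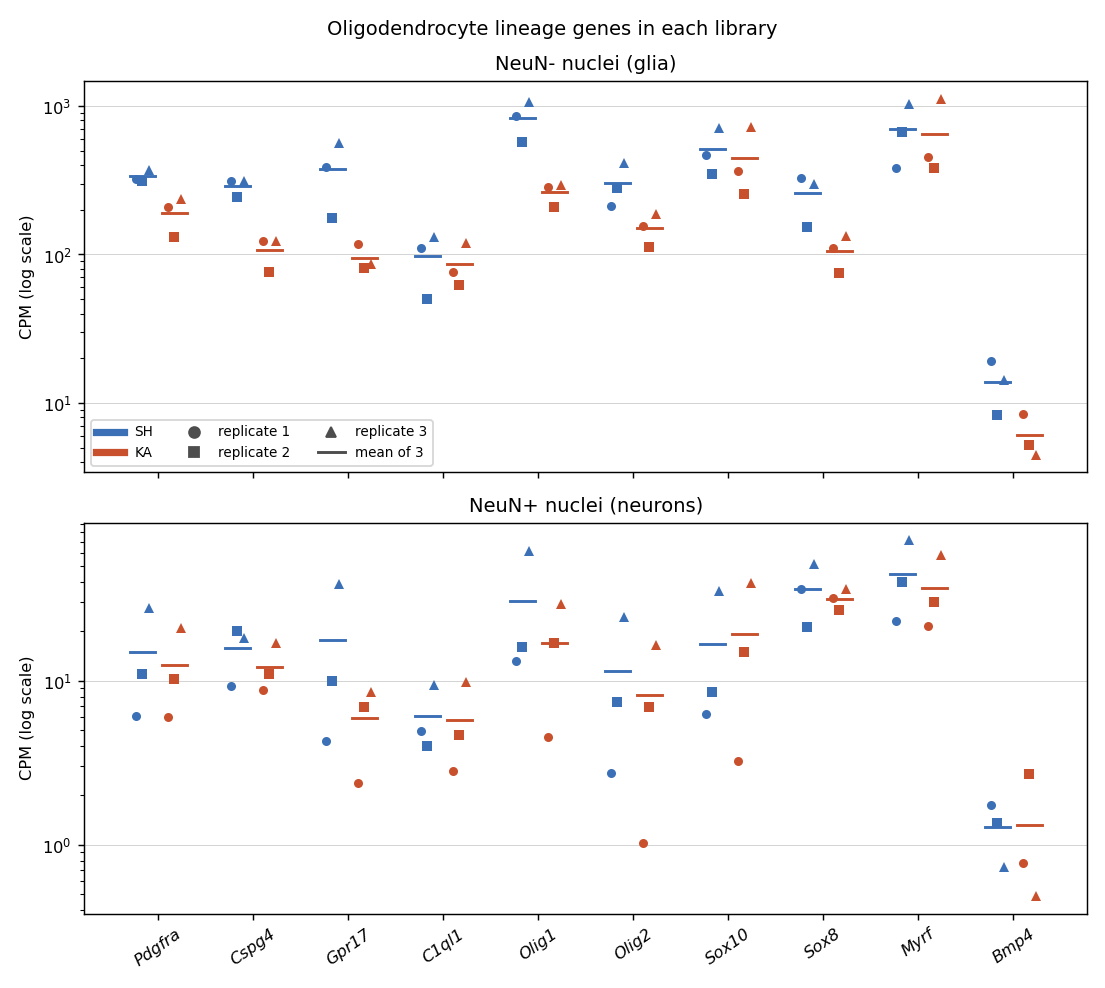
CPM of the 10 lineage genes on a log scale in each of the 6 glia libraries (top) and 6 neuron libraries (bottom), blue for SH and red for KA, with marker shape for the replicate and a bar for the mean of 3. In glia, every KA library lies below every SH library for Pdgfra, Cspg4, Gpr17, Olig1, Olig2 and Sox8 and overlap them for C1ql1, Sox10, Myrf and Bmp4.

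Among the surface receptors and proteoglycans, Cspg4 carried the smallest p. It encodes NG2, the chondroitin sulfate proteoglycan by which OPCs are recognised, and which pericytes also carry (ENSMUSG00000032911, GRCm38 chromosome 9 from 56865033 to 56899870). In SH glia Cspg4 was at 314, 245 and 315 CPM in replicates 1, 2 and 3, and in KA glia at 122, 75.7 and 123 CPM. The highest KA library thus had less than the lowest SH library, and the means were 291 ± 40.3 CPM in SH and 107 ± 27.3 CPM in KA (SD, n = 3). The logFC was -1.44 (SE 0.38) with an FDR of 0.240, and -1.47 (SE 0.24) with an FDR of 0.00158 with the replicate block. Over 20 alternatives Cspg4 stayed negative in every one and was called in 12, with FDRs from 7.71e-06 to 1.00. Its call was lost when SH glia replicate 1 (FDR 0.502), SH glia replicate 3 (0.730), KA glia replicate 1 (0.762), KA glia replicate 2 (1.00) or KA glia replicate 3 (0.289) was left out, all with edgeR and Benjamini-Hochberg adjustment.

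Pdgfra encodes the PDGF receptor alpha, through which PDGF-A drives OPC proliferation and survival (ENSMUSG00000029231, chromosome 5 from 75152292 to 75198215). It had 322, 313 and 371 CPM in SH glia and 209, 131 and 235 CPM in KA glia, again without overlap. The means were 336 ± 31.2 CPM and 192 ± 54.0 CPM (SD, n = 3), a logFC of -0.81 (SE 0.52, FDR 1.00) that passed with the replicate block (-0.85, SE 0.23, FDR 0.0577). It was called in 3 of 20 alternatives, with FDRs from 0.0141 to 1.00. The antisense gene Gm42802 overlaps 4.55% of its exon bases. Default counting did not use the strand and left out reads on exons of both genes.

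Gpr17, a G protein-coupled receptor that appears for a short time as precursors commit to differentiation, had the largest logFC of the 10 genes (ENSMUSG00000052229, chromosome 18 from 31942997 to 31949636). Its level was 391, 177 and 563 CPM in SH glia and 117, 80.6 and 86.2 CPM in KA glia. SH libraries spread widely (377 ± 194 CPM, SD, n = 3) and KA libraries lay close together (94.7 ± 19.7 CPM). The logFC was -1.99 (SE 0.66) with an FDR of 0.523, and -1.86 (SE 0.32) with an FDR of 0.00254 with the replicate block. It was called in 8 of 20 alternatives, with FDRs from 3.92e-08 to 1.00. The gene Lims2 on the other strand shares 3.62% of the exon bases of Gpr17.

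The secreted members moved differently from each other. C1ql1, a C1q-like protein made by OPCs that binds the adhesion receptor Adgrb3, was at 111, 49.9 and 130.4 CPM in SH glia and 76.2, 62.4 and 119.6 CPM in KA glia (ENSMUSG00000045532, chromosome 11 from 102939264 to 102946688). The groups overlapped, with a logFC of -0.17 (SE 0.47, FDR 1.00) and of -0.11 (SE 0.26, FDR 0.915) with the replicate block. No alternative called it.

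Bmp4, a ligand of the BMP receptors that committed precursors make, was the least abundant member (ENSMUSG00000021835, chromosome 14 from 46383520 to 46390669). Its CPM were 19.1, 8.23 and 14.3 in SH glia and 8.43, 5.20 and 4.49 in KA glia. KA replicate 1 lay above SH replicate 2, and each KA library lay below the SH library of its own number. The logFC was -1.20 (SE 0.61, FDR 1.00) and -1.17 (SE 0.41, FDR 0.178) with the replicate block, and 3 of 19 alternatives called it, with FDRs from 0.105 to 1.00.

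Of the transcription factors, the basic helix-loop-helix proteins Olig1 and Olig2 were lower in all 3 KA glia libraries. Olig1 supports oligodendrocyte maturation (ENSMUSG00000046160, chromosome 16 from 91269772 to 91271933). It had 862, 569.7 and 1059.6 CPM in SH glia and 285, 209.9 and 295 CPM in KA glia. The logFC was -1.66 (SE 0.63, FDR 0.743) and -1.63 (SE 0.27, FDR 0.00175) with the replicate block, with calls in 6 of 20 alternatives and FDRs from 5.53e-06 to 1.00. The noncoding gene Gm15966 on the other strand shares 7.26% of its exon bases.

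Olig2, which specifies the lineage and lies near Olig1 on the same chromosome (ENSMUSG00000039830, chromosome 16 from 91225457 to 91228677), had 213, 278 and 413 CPM in SH glia and 155, 112 and 187 CPM in KA glia. The lowest SH library was above the highest KA library, though the SH libraries spanned almost the same factor as the gap between the means, 302 ± 102 CPM against 151 ± 37.4 CPM (SD, n = 3). The logFC was -0.99 (SE 0.73, FDR 1.00) and -0.97 (SE 0.26, FDR 0.0485) with the replicate block. Calls were made in 3 of 20 alternatives, with FDRs from 6.16e-04 to 1.00.

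The SoxE proteins Sox8 and Sox10, which bind the same DNA motif and overlap in function, gave different values. Sox8 (ENSMUSG00000024176, chromosome 17 from 25565892 to 25570686) had 329, 153 and 300.2 CPM in SH glia and 110.03, 74.7 and 132 CPM in KA glia. Its logFC was -1.30 (SE 0.40, FDR 0.415) and -1.27 (SE 0.24, FDR 0.00521) with the replicate block, called in 9 of 20 alternatives with FDRs from 7.77e-04 to 1.00. An antisense gene, 2810468N07Rik, shares 10.6% of the exon bases of Sox8. The paper lists this antisense gene as downregulated in glia at an FDR below 0.25. Default counting left out reads on exons of both genes, and any other part of the antisense gene in the Sox8 counts was not tested.

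Sox10, a factor in the differentiation of the lineage (ENSMUSG00000033006, chromosome 15 from 79154908 to 79165240), had 471, 351 and 709 CPM in SH glia and 364, 255 and 723 CPM in KA glia. The groups overlapped widely, and replicate 3 was highest in both. The logFC was -0.19 (SE 0.73, FDR 1.00) and -0.27 (SE 0.26, FDR 0.751) with the replicate block, and no alternative called it. Myrf, the membrane-bound activator of myelin genes (ENSMUSG00000036098, chromosome 19 from 10208272 to 10240748), likewise overlapped, with 382, 671 and 1036 CPM in SH glia and 456, 381 and 1119.6 CPM in KA glia. Its logFC was -0.09 (SE 0.56, FDR 1.00) and -0.15 (SE 0.24, FDR 0.868) with the replicate block, and its sign was positive in 5 of 20 alternatives. A missed threshold does not show that Sox10, Myrf and C1ql1 were equal in KA and SH.

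**Figure D2:**
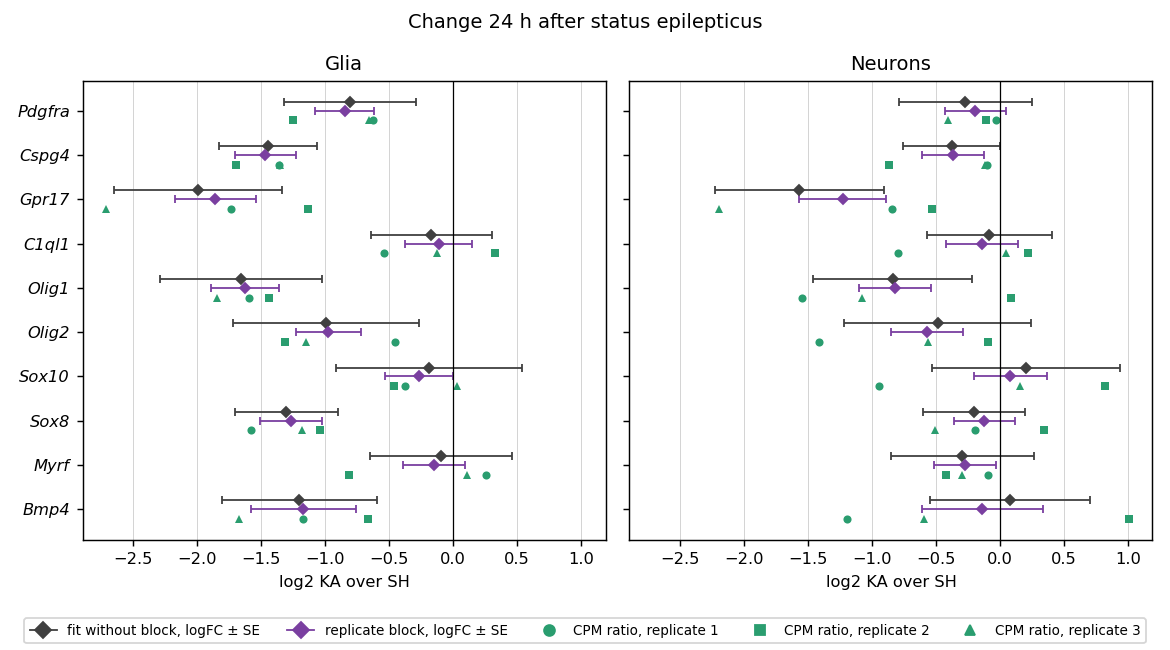
Change of each lineage gene in KA over SH on the log2 scale, in glia (left) and neurons (right). Diamonds with bars are logFC ± SE without (grey) and with (purple) the replicate block, and green markers are log2 CPM ratios of KA over SH within each replicate number. In glia all 3 ratios of Pdgfra, Cspg4, Gpr17, Olig1, Olig2, Sox8 and Bmp4 lie below 0, and those of C1ql1, Sox10 and Myrf fall on both sides.

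The ratio of KA to SH within each replicate number showed how even the changes were. For Cspg4 the log2 CPM ratio was -1.36, -1.69 and -1.35 in replicates 1, 2 and 3, and for Olig1 it was -1.60, -1.44 and -1.84. Gpr17 was less even, at -1.74, -1.13 and -2.71, and Olig2 ranged from -1.31 to -0.46. Replicate 3 is the number whose KA and SH glia libraries were both made from about 1 ng RNA. There the log2 ratios were -0.66 for Pdgfra, -1.18 for Sox8 and -1.68 for Bmp4, beside 0.03 for Sox10 and 0.11 for Myrf. With the replicate block and replicate 3 left out, 4 of 10 genes were called (Cspg4, Gpr17, Olig1 and Sox8), against 0.504% of all genes called downregulated, with FDRs of 0.161 for Cspg4, 0.185 for Gpr17 and 0.213 for Olig1 in edgeR with Benjamini-Hochberg adjustment. Leaving out replicate 1 in the same way gave 7 of 10, against 5.04% of all genes, and leaving out replicate 2 gave 7 of 10, against 4.26%.

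Because a ratio of genes within a library does not depend on scaling, each member was also set against Sox10, a gene of the whole lineage, chosen as reference with its values known. The log2 CPM ratio of Cspg4 to Sox10 was -0.59, -0.52 and -1.17 in SH glia and -1.57, -1.75 and -2.55 in KA glia. For Gpr17 it was -0.27, -0.99 and -0.33 in SH and -1.63, -1.66 and -3.07 in KA, and for Olig1 0.87, 0.70 and 0.58 in SH and -0.35, -0.28 and -1.29 in KA. In these 3 genes, and in Olig2 and Sox8, the 3 KA ratios lay below the 3 SH ratios. The ratio of Olig1 to Sox10 was thus above 0 in every SH and below 0 in every KA glia library. For Olig2 the gap was small, from -1.15 in SH replicate 1 to -1.19 in KA replicate 2. The share of all genes tested with such separate ratios was not computed, so these genes are described without a background.

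Pdgfra (-0.55 ± 0.38 in SH and -1.13 ± 0.44 in KA, SD, n = 3), C1ql1 (-2.45 ± 0.36 and -2.29 ± 0.28), Myrf (0.39 ± 0.63 and 0.51 ± 0.16) and Bmp4 (-5.22 ± 0.53 and -6.13 ± 1.05) had overlapping ratios. These values describe unequal change among the genes, and the level of Sox10 itself had the error given above.

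**Figure D3:**
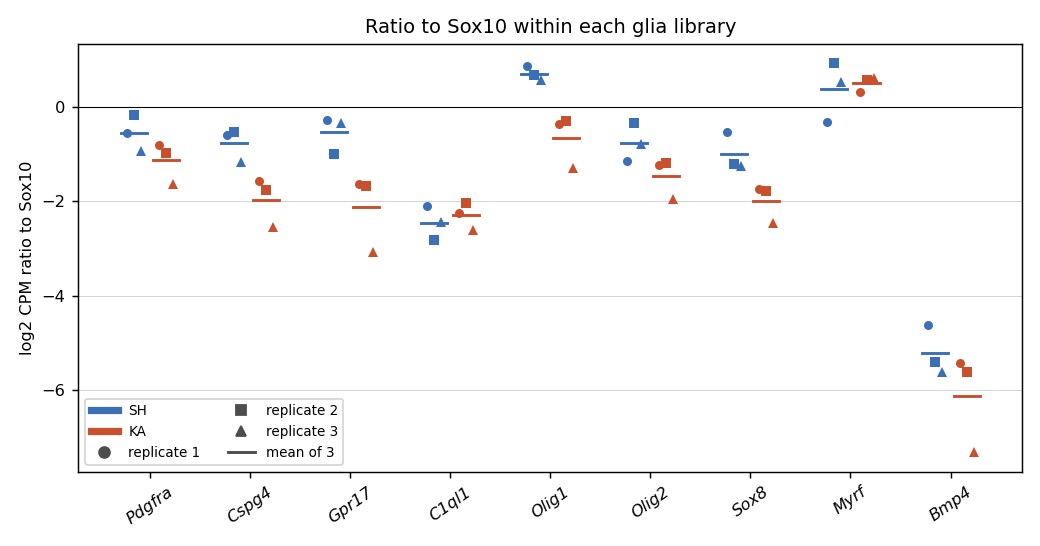
Log2 CPM ratio of each lineage gene to Sox10 within each glia library, blue for SH and red for KA, with marker shape for the replicate and a bar for the mean of 3. The KA ratios lie below the SH ratios for Cspg4, Gpr17, Olig1, Olig2 and Sox8, and overlap them for Pdgfra, C1ql1, Myrf and Bmp4.

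Promoter sequences of 5 of the 10 genes are shown here (RefSeq, build GRCm38.p6). These 5 genes were downregulated together with the replicate block. Gpr17 and Olig1 were downregulated with the block too, and their promoters are not shown. Each sequence is the 250 bases before the start that RefSeq gives the gene, read 5′ to 3′ on the strand of the gene. Capitals mark matches to the E-box CANNTG, the core bound by Olig proteins and many others, or to the words ACAAAG and ACAATG on either strand, which SOX proteins can bind. The gene positions above are those of GENCODE, whose start is the same for Sox8 and Bmp4 but lies within the printed stretch for Cspg4 and Olig2 and downstream of it for Pdgfra.
Cspg4, plus strand, chr9:56864854-56865103: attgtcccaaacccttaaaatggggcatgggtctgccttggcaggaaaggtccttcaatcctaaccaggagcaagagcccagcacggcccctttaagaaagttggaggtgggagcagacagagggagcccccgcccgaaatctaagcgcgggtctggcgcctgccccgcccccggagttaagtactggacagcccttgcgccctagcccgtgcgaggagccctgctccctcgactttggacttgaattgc
Pdgfra, plus strand, chr5:75152001-75152250: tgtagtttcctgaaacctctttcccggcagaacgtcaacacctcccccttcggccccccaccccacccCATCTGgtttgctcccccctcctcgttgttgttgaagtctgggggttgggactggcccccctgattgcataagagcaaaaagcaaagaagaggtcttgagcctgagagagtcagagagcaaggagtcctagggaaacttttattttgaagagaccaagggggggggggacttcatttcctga
Olig2, plus strand, chr16:91225300-91225549: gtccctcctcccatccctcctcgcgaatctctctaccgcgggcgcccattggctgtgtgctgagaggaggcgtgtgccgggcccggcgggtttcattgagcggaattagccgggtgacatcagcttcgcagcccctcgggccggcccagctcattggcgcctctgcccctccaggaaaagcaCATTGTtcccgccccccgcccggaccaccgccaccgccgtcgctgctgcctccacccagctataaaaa
Sox8, minus strand, chr17:25570687-25570936: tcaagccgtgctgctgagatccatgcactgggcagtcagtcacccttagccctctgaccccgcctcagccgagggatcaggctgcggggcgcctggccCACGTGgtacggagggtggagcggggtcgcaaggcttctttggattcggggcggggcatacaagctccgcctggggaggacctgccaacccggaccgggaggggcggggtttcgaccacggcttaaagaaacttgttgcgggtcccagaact
Bmp4, minus strand, chr14:46390670-46390919: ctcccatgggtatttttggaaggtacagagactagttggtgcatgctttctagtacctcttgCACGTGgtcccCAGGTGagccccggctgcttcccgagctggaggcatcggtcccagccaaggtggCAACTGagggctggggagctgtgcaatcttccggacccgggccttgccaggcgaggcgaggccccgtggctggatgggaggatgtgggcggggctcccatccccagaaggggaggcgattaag
An E-box was present 3 times in Bmp4, once in Pdgfra and once in Sox8 and not in Cspg4 or Olig2 (3 of 5 promoters), while 66.2% of 32851 promoters of this length hold at least 1. A SOX word was present once in Olig2 and in none of the other 4, against 25.2% of all promoters. A match is a description of letters and not a binding site.

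In neurons, the lineage genes were present at low levels. Taking the mean of the glia libraries of the same treatment as 100%, the median over the members in NeuN+ libraries was 4.80% ± 2.99 in SH (10 members) and 6.50% ± 4.04 in KA (SD, n = 3; 9 members with at least 10 CPM in glia). Among single genes the share was highest for Sox8, at 8.14% to 34.2%, and Bmp4, at 5.30% to 44.8%, while Sox10 ranged from 0.725% to 8.78% and Olig2 from 0.677% to 10.9%. The 44.8% of Bmp4 rests on 78 reads in KA neurons replicate 2 and on a KA glia mean of 6.04 CPM, below the limit of 10 CPM. For 8 of the 10 genes (Pdgfra, Gpr17, C1ql1, Olig1, Olig2, Sox10, Sox8 and Myrf) SH neurons replicate 3 had the highest SH level. Myelin gene levels moved with this library too: their summed level was 1386 CPM there, and 363 and 401 CPM in the other two SH neuron libraries. The source of lineage RNA in NeuN+ libraries was not tested.

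No lineage gene passed in neurons without the block. At an FDR below 0.25, 0 of 10 were downregulated, against 0.0612% of all genes, and 0 upregulated, against 0.279% (edgeR). At an unadjusted p below 0.05 (edgeR) there was 1 with a negative logFC, Gpr17, against 499 of 37598 genes tested. None had a positive logFC at that level, against 704 genes. These counts over all genes also apply to the neuron lists below. DESeq2 and edgeR 4 called 0 of the 10 genes. In 0 of 10 was every KA library below every SH library, against 4.45% of all genes. With the replicate block 1 of 10 (Gpr17) was downregulated, against 1.11% of all genes, and 0 upregulated, against 1.94%. The median logFC of the 10 genes was -0.28, against 0.00 over all genes tested.

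Gpr17 in neurons was at 4.30, 9.99 and 39.0 CPM in SH and 2.39, 6.91 and 8.51 CPM in KA. The groups overlapped, and SH replicate 3 stood far above the others. The logFC was -1.57 (SE 0.66, FDR 1.00) and -1.23 (SE 0.34, FDR 0.0995) with the replicate block, and FDRs ranged from 0.00131 to 1.00 over 20 alternatives. Without SH neurons replicate 3 the logFC was -0.26, and with the block and without replicate 3 it was -0.67 with an FDR of 1.00 (edgeR, Benjamini-Hochberg).

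Cspg4, with 9.32, 20.02 and 18.2 CPM in SH and 8.71, 11.002 and 16.9 CPM in KA neurons, had a logFC of -0.38 (SE 0.38). Olig1 had 13.3, 16.02 and 62.1 CPM in SH and 4.53, 17.01 and 29.4 CPM in KA, a logFC of -0.84 (SE 0.62), and Olig2 ranged from 2.72 to 24.3 CPM in SH and from 1.02 to 16.4 CPM in KA. Sox8 lay at 21.2 to 51.4 CPM in SH and 26.9 to 36.2 CPM in KA. None of these 4 had an FDR below 1.00 in neurons without the block.

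The difference between the change in glia and the change in neurons was tested as an interaction. It was negative for 9 of 10 lineage genes, with a median of -0.52, but 0 of 10 passed, against 0% of all genes tested. With the pool as a block 0 of 10 passed, against 0.471% of all genes. Without the block none had an unadjusted p below 0.05 (edgeR), and DESeq2 called none. The smallest FDR with the pool block was 0.278, for Sox8 (difference -1.15, SE 0.29), and Cspg4 had a difference of -1.11 (SE 0.40) and an FDR of 0.715. A difference in the KA effect between glia and neurons was therefore not shown for any of the 10 genes.

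Other OPC genes were followed with a list of 12. All 12 had a negative logFC in glia (median -0.77), and none was upregulated. Without the block 1 was downregulated, against 0.306% of all genes. With it 7 were (Susd5, Neu4, Matn4, Ptprz1, Cacng4, Tnr and Xylt1), against 4.17%. The same 2 shares apply to downregulated counts of the glia lists below. Of the 12, 8 were higher in glia than in neurons at an FDR below 0.05. Tnr (120 and 111 CPM) and Xylt1 (109 and 105 CPM) had similar means in glia and neurons. Susd5, a hyaluronan-related surface protein gene, was at 55.2, 31.4 and 61.2 CPM in SH and 16.3, 15.98 and 9.55 CPM in KA glia (logFC -1.82, SE 0.37, FDR 0.0651). Neu4, a sialidase, was at 157, 64.6 and 185 CPM in SH and 61.2, 27.8 and 45.1 CPM in KA glia (logFC -1.60, FDR 0.254, and 0.00299 with the block).

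In neurons the same list ran the other way for some genes. Megf11, a transmembrane protein gene that neurons also express, was upregulated (logFC 2.19, SE 0.39, FDR 0.0527), from 24.0, 39.7 and 50.9 CPM in SH to 114, 189 and 220.2 CPM in KA neurons. With the replicate block Pcdh15, a protocadherin (logFC 1.39, FDR 0.00304), and Xylt1, which starts glycosaminoglycan chains (1.12, FDR 0.0523), were upregulated as well. These genes were not low in neurons, at 109.5 ± 64.4 CPM for Pcdh15 and 105 ± 52.8 CPM for Xylt1 (SD, n = 6).

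Genes of newly formed oligodendrocytes were less uniform. Of 10, 8 had a negative logFC in glia (median -0.41), and 1 was downregulated without and 3 with the block. At an FDR below 0.05, 7 of the 10 were higher in glia than in neurons and 2 were lower. Mean levels in glia and neurons were 8.61 and 39.6 CPM for Rras2, 33.0 and 91.8 CPM for Cemip2, and 117 and 131 CPM for Fyn. Enpp6, a choline phosphodiesterase and early marker of differentiating cells, was at 163, 67.0 and 143 CPM in SH and 57.0, 34.8 and 44.2 CPM in KA glia (logFC -1.46, SE 0.37, FDR 0.196). Tmem163 (-1.02, FDR 0.0406) and Lims2 (-1.38, FDR 0.0566) passed with the block, and Lims2 shares 6.14% of its exon bases with Gpr17 on the other strand. In neurons Cemip2, a hyaluronidase, was upregulated with the block (logFC 1.43, FDR 0.00478).

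Genes of mature myelin were also lower. All 12 had a negative logFC in glia, with a median of -1.23, close to that of the 10 lineage genes, and 1 was downregulated without and 8 with the block, among them Aspa, Cnp, Mal, Mbp, Mog, Ermn and Ugt8a. Aspa, which splits N-acetylaspartate, was at 316, 226 and 467 CPM in SH and 101, 69.9 and 107 CPM in KA glia (logFC -1.86, SE 0.49, FDR 0.235). The summed level of the 12 genes was between 15461 and 32492 CPM in SH and between 8054 and 15022 CPM in KA glia, so the groups did not overlap. In neurons Mal (-1.19, FDR 0.0259) and Cnp (-0.86, FDR 0.0779) were downregulated with the block.

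**Figure D4:**
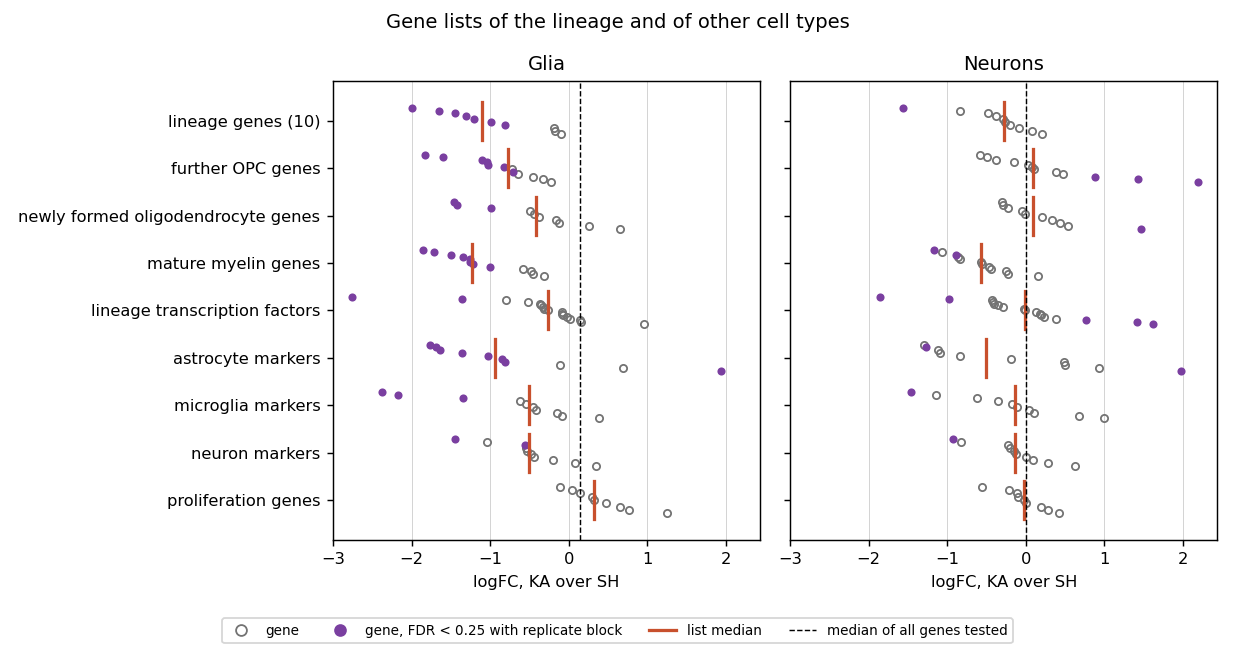
LogFC of KA over SH for the genes of 9 lists in glia (left) and neurons (right), each point a gene, filled purple where the FDR was below 0.25 with the replicate block, with a red bar for the list median and a dashed line for the median of all genes tested. In glia the 10 lineage genes, the further OPC genes and the mature myelin genes all lie below 0, and the medians of the astrocyte, microglia and neuron markers are also negative.

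Markers of astrocytes, microglia and neurons had negative medians in glia as the lineage genes did, though not every gene of them, and their part in these results was not tested. Endothelial (6 of 7 positive, median 0.77) and blood leukocyte markers (5 of 6 positive, median 0.58) had positive medians, with none called without the block. Of 10 astrocyte markers 1 was downregulated without the block, and 7 downregulated and 1 upregulated with it (median -0.94, summed level 2119 to 3069.7 CPM in SH and 1256 to 2392 CPM in KA). Of 10 microglia markers 2 were downregulated without and 3 with the block (median -0.50, 1119 to 2539.6 CPM in SH and 831 to 1672 CPM in KA). Of 10 neuron markers 1 was downregulated without and 2 with the block (median -0.50, 581 to 1592 CPM in SH and 421 to 1385 CPM in KA). The summed level of the 10 lineage genes was 2817 to 4912 CPM in SH and 1389 to 3026 CPM in KA. Cspg4 is shared with pericytes, whose list of 6 had 0 genes called without and 1 with the block (Vtn, downregulated), with a median of -0.25 and summed levels of 67.2 to 132 CPM in SH and 31.5 to 80.4 CPM in KA glia. No defining marker named above was at 0 in any library.

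The other transcription factors of the lineage showed few changes. Of 17, 1 was downregulated in glia without and 2 with the block. Hes5, a repressor downstream of Notch, was at 81.6, 14.3 and 30.8 CPM in SH and 12.6, 2.71 and 3.71 CPM in KA glia (logFC -2.75, SE 0.73, FDR 0.240). In neurons Sox9 (1.61, FDR 0.00454), Sox11 (1.50, FDR 0.00767) and Sox5 (0.76, FDR 0.214) were upregulated and Hes5 (-1.51, FDR 0.126) and Zeb2 (-0.91, FDR 0.0863) downregulated with the block, in edgeR with Benjamini-Hochberg adjustment.

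Among 8 tested growth factor genes for precursors, Lif was upregulated in glia (logFC 3.57, SE 0.94, FDR 0.235). This cytokine of the interleukin 6 family was at 9.08, 6.96 and 2.42 CPM in SH and 63.3, 46.4 and 107 CPM in KA glia. With the block Fgf2 (1.16, FDR 0.129) and Pdgfb (1.04, FDR 0.0559) were upregulated and the receptor Fgfr2 (-0.90, FDR 0.0952) downregulated. Pdgfa, the ligand of Pdgfra, was at 49.8 ± 12.4 CPM in SH and 72.3 ± 38.6 CPM in KA glia (SD, n = 3), with a logFC of 0.54 (SE 0.41, FDR 1.00). In neurons none of the 8 was called with or without the block, and without it 1 had a positive logFC at an unadjusted p below 0.05.

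The BMP pathway around Bmp4 was followed with 22 genes. None was called in glia without the block, with 2 at an unadjusted p below 0.05 (1 higher and 1 lower in KA). With it the target Id1 was upregulated (logFC 1.67, FDR 0.0378) and Id4 (-1.36, FDR 0.0304) and the antagonist Chrd (-0.99, FDR 0.0496) downregulated. In neurons the block gave upregulation of the ligand Bmp2 (1.44, FDR 0.0399), the inhibitor Smad7 (1.76, FDR 0.00166) and Id2 (1.43, FDR 0.0866) and downregulation of the pseudoreceptor Bambi (-1.14, FDR 0.0955). Without the block 0 of 22 were called in neurons, with 5 at an unadjusted p below 0.05 (4 higher and 1 lower in KA).

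Of the family and receptor of C1ql1, C1ql2 (-1.13, FDR 0.00943) and C1ql3 (-0.86, FDR 0.221) were downregulated in glia and C1ql2 (-1.13, FDR 0.0137) in neurons with the block. Both are largely neuronal genes, and the list was 4 genes long with none called without the block. In each fraction 1 of 4 had a negative logFC at an unadjusted p below 0.05. Proliferation genes were not called in either fraction, with or without the block, and without it 0 of 9 had an unadjusted p below 0.05. In glia 8 of 9 had a positive logFC, against 22028 of 37598 genes tested, with a median of 0.32 against 0.14. Their summed level was 71.4 to 93.7 CPM in SH and 105 to 110 CPM in KA glia, so the groups did not overlap. For 1 of the 9 every KA library lay above every SH library, against 1356 of all genes. In neurons 4 of 9 had a positive logFC (median -0.02). Mki67 was at 7.90 ± 3.79 CPM in SH and 12.5 ± 3.73 CPM in KA glia (SD, n = 3), and Top2a at 7.79 ± 4.84 and 13.3 ± 8.07 CPM.

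Among the genes most like the mean of the 10 centred log2 CPM values over the 12 libraries were Rhog (Pearson's r 0.997), Pbxip1 (0.996) and Emid1 (0.995), a ranking driven by the gap between glia and neurons. Over the 6 glia libraries alone they were Tmeff1 (0.998), Etv4 (0.997), Fut9 (0.997), Secisbp2l (0.996) and Gjc3 (0.995). The points share depth, amplification and treatment, and the values are given as a description.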

How the data were processed

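The 12 mRNAseq libraries were used. The authors trimmed reads with Trim Galore, aligned them to mm10 with Rsubread and counted them per gene with featureCounts under defaults and GENCODE M16; the deposited table holds these raw counts without normalization. Default counting ignores strand and leaves out reads on exons of several genes. Read type per library is not given in the sources used here. Symbols and positions are those of GENCODE M21 (53274 of 53379 genes).

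Counts were filtered with filterByExpr (minimum count 10, minimum total 15), TMM normalized and fitted with edgeR 4.0.16 in R 4.3.3 as 4 group means over 12 libraries (glmQLFit, legacy=TRUE, glmQLFTest, Benjamini-Hochberg FDR over 37598 genes, thresholds 0.25 for KA against SH and 0.05 for glia against neurons). The SE was obtained by dividing the absolute logFC by sqrt(F). The joint fit departs from the paper, which treated neurons and glia separately.

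Replicate numbers paired KA and SH libraries: their deviations from group means correlated at 0.457, 0.543 and 0.764 in glia and 0.399, 0.264 and 0.551 in neurons. The 2 fractions of a pool correlated at 0.293 to 0.649. Alternatives were the replicate block within a cell type or by pool, other scalings and filters, DESeq2 1.42.0, edgeR with legacy=FALSE (edgeR 4), all gene IDs, separate fits, other FDR thresholds, and libraries left out. Code was tested on simulated data.

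The members and gene lists, written from general knowledge, were chosen with earlier results of these data known. Named genes are the members, up to 8 genes per list called with or without the block by p, 6 defining markers, and the 5 genes most like the members; some genes that this rule selects are not reported here. The list symbol Tmem2 is Cemip2 in GENCODE M21. Python 3.11.15 and matplotlib 3.10.9 drew figures.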

Additional observations from a re-analysis of the deposited data

Results flagged for a closer look

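Gpr17 in SH neurons replicate 3, at 39.0 CPM, stood apart from the other 5 neuron libraries: its gap to the next library was 0.792 of the whole range, above the limit of 0.625 for 6 values. It was the 1 set singled out among 20 (10 genes in 2 fractions, KA and SH together), and chance singles out about 1 in 20. The same library had the highest level of the 6 for Olig1, Olig2, Pdgfra, Sox8 and Myrf. With the pool as a block, the KA effect in glia was lower than in neurons for 7 genes of the lists that are not among the 10 lineage genes (edgeR, Benjamini-Hochberg FDR below 0.25). The difference on the log2 scale was -2.56 for Megf11 (FDR 0.00920), -2.04 for Smad7 (FDR 0.0391), -1.65 for P2ry12 (FDR 0.0588), -1.63 for Pcdh15 (FDR 0.0965), -1.91 for Bmp2 (FDR 0.166), -1.83 for Xylt1 (FDR 0.173) and -1.65 for Sox11 (FDR 0.219). For P2ry12 the KA libraries were lower in glia, and for the other 6 the logFC in neurons was positive. None of the 7 passed without the block.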

How the results depend on the processing

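The number of lineage genes called lower in KA glia was 1, and 2 with upper quartile factors, library size only or edgeR 4, 4 with DESeq2 or at least 10 counts in every library (9 of 10 genes tested), 7 with the replicate block, and 0 without a filter, without both libraries of low input, in a separate fit or at an FDR of 0.05. Leaving out 1 glia library gave 0 to 3, with 3 only without SH glia replicate 2. With the block and 1 replicate number left out, chosen after seeing the data, it was 7, 7 and 4 without replicate 1, 2 or 3. In neurons it was 0, 1 with the block, and 1, 2 and 0 with the block and without replicate 1, 2 or 3. Called genes among all tested in glia numbered 281, and 877 (upper quartile), 740 (library size only), 1203 (10 counts), 681 (DESeq2), 511 (edgeR 4), 2871 (block), 41 (without low input), 146 (separate fit), 3100, 3490 and 326 (block without replicate 1, 2 or 3), 62 (FDR 0.05) and 83 (without SH glia replicate 3) to 554 (without SH glia replicate 2), and each of the 6 libraries moved it by over 1.5 times. In neurons they numbered 128, and 300, 363, 465, 354, 251, 1147, 79, 656, 1520, 1848, 108 and 18 under the same alternatives in that order, and 11 (without SH neurons replicate 1) to 143 (without KA neurons replicate 1, the 1 library that moved it by less than 1.5 times). For the difference they numbered 0, and 8 (upper quartile), 7 (library size only), 9 (no filter), 15 (10 counts), 34 (DESeq2), 177 (pool block) and 0 to 3 with 1 library left out. For glia against neurons they numbered 6964, and 11092 (pool block), 4638 (without low input), 11109 (FDR 0.25) and 4875 to 8334 with 1 library left out. The cause of these changes was not tested. Among all genes called in glia 166 were higher and 115 lower, against 305 and 572 with upper quartile factors and 514 and 226 with library size only, which shifted the median logFC by 0.29 in glia, 0.11 in neurons, 0.17 for the difference and 0.43 between fractions. The logFC of Pdgfra, Cspg4, Gpr17, Olig1, Olig2, Sox8 and Bmp4 in glia was negative under every alternative tried. Gpr17 in neurons was negative in all 20, and Olig1 in neurons, called with the block and without replicate 2, was negative in 19 of 20. The replicate block changed no other call of a lineage gene than those given.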

Other observations

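Astrocyte and microglia genes did not move as a block in glia. Gfap, the intermediate filament of reactive astrocytes, was at 136, 119 and 176 CPM in SH and 568, 359.6 and 720.04 CPM in KA glia (logFC 1.90, FDR 0.00142 with the replicate block in edgeR), while Aldoc, Gja1, Gjb6, Slc4a4, Slc1a3, Fgfr3 and Slc1a2 were downregulated with the block (logFC -1.91 to -0.88). Aldh1l1 was at 32.1 ± 8.14 CPM in SH and 29.6 ± 1.66 CPM in KA glia (SD, n = 3). Of the microglia markers, the homeostatic genes P2ry12 (logFC -2.38, FDR 0.0826) and Siglech (-2.18, FDR 0.0295) were downregulated without the block and Tmem119 with it (-1.24, FDR 0.124), while Cx3cr1 had a logFC of -0.61 (SE 0.51, FDR 1.00).

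Of the vascular and blood lists in glia, 0 genes of 7 endothelial, 6 fibroblast and 6 tested leukocyte markers were called without the block. In that fit none had an unadjusted p below 0.05 (edgeR). With the block 1 (Tek, upregulated), 1 (Col3a1, upregulated) and 0 were called. In neurons Dcn (logFC -1.54, FDR 0.00397) and Lum (-1.71, FDR 0.0989), matrix genes of the fibroblast list, were downregulated with the block.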
